A study of Mus musculus with 6 samples.

Results

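Hox genes, the homeobox transcription factor genes whose order along each chromosomal cluster mirrors where they are expressed along the head-to-tail axis, were followed in the tongue of mouse embryos at embryonic day 14.5. The members were all probe sets of the deposited table whose annotation names a single gene of the Hoxa, Hoxb, Hoxc or Hoxd cluster. This gave 48 probe sets for 33 genes, out of 45037 probe sets in all and 18193 genes with a probe set of their own.

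The samples were tongues of C57BL/6J mouse embryos, with 3 arrays of each genotype. The mutants carried Tgfbr2 fl/fl and Wnt1-Cre, so that Tgfbr2, the type II TGF-beta receptor gene, is targeted by a recombinase whose Wnt1 driver works in neural crest cells. The controls had Tgfbr2 fl/fl without Cre, although their titles read wildtype. Cells outside the crest lineage, among them the muscle fibres, keep the receptor gene in this design, and the labels call the material both tongue and tongue mesenchyme. No label says whether arrays of a group came from separate litters, so the spread behind the p-values may be partly technical.

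Hox proteins bind DNA with partners of the TALE class (Meis, Pbx and Pknox proteins) and give cells a position along the body axis. Cranial neural crest that fills the first pharyngeal arch, the source of most connective tissue of the front of the tongue, is known to lack Hox expression. Crest of the more posterior arches expresses Hox genes of the anterior paralogue groups, and the occipital somites that supply the tongue muscle express Hox genes as well. Genes of the posterior groups are best known from the trunk, limbs and tail.

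All values below are log2 expression. A probe set's level depends on its own probes, so detection was judged against a background and not against another probe set. Levels of different probe sets were used together only to pick the brightest of a gene and to sum marker lists. The background of an array was the 95th percentile of its 81 probe sets for olfactory, vomeronasal and trace amine receptor genes, between 5.47 and 5.59 in the 6 arrays. A probe set was called above background when all 3 arrays of a group exceeded their own limit.

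Most Hox probe sets lay at background in control tongues. Of the 48, 9 were above it, or 18.8%, against 53.8% of all probe sets and 3.70% of the receptor probe sets that set the limit. These 9 read 8 of the 33 genes: Hoxa3, Hoxa5, Hoxa7, Hoxa9, Hoxb2, Hoxb3, Hoxc9 and Hoxd8. In the mutants 8 of the same 9 were above background, Hoxa3 being the exception, and no other Hox probe set was. Bulk tissue does not tell fewer expressing cells from less RNA per cell, and a probe set at background may belong to a gene active in few cells.

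**Figure D1:**
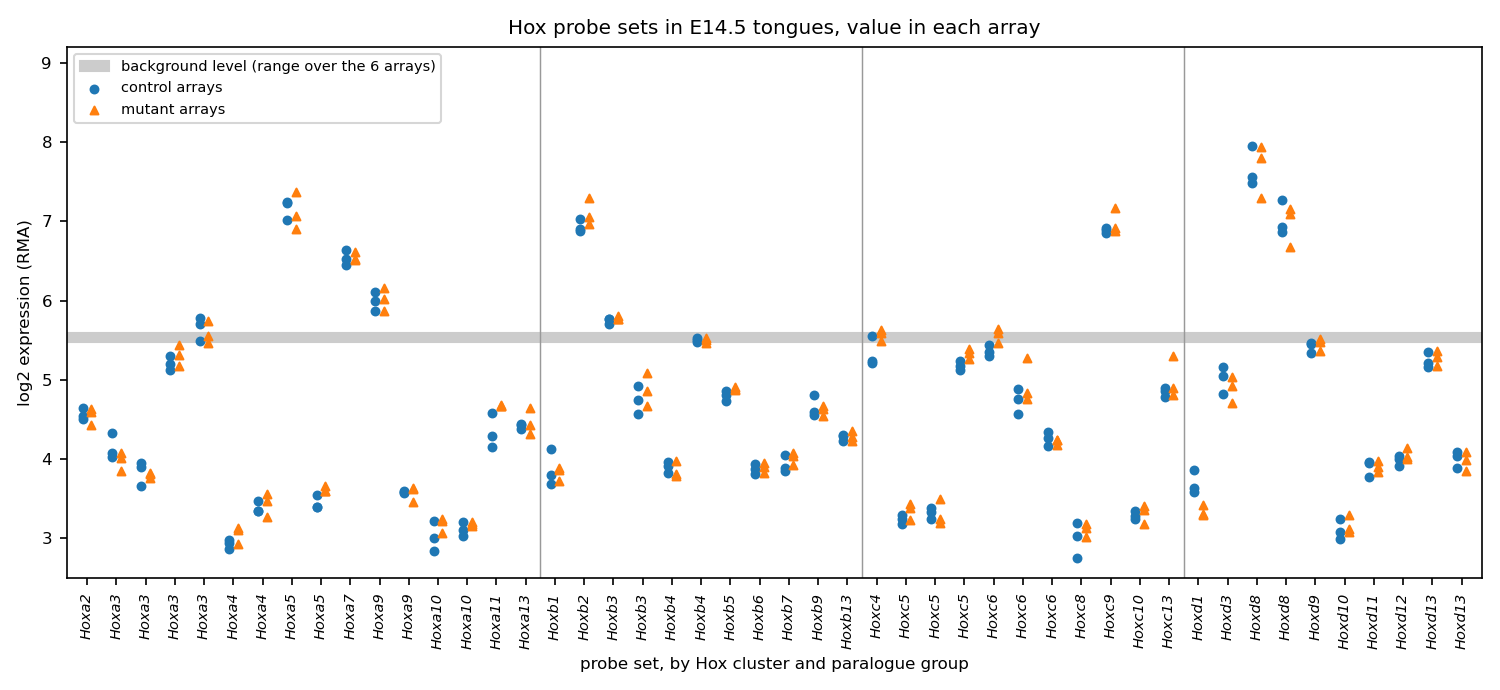
Log2 expression of the 48 Hox probe sets (horizontal axis, by cluster and paralogue group) in each of 3 control arrays (circles) and 3 mutant arrays (triangles); the grey band is the background level, 5.47 to 5.59. The 9 probe sets above background in controls stand over the band, except that Hoxa3 reaches into it, and in each of the 9 the values of circles and triangles overlap.

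The genes above background followed no single block of the clusters. They were 3 of 10 genes in paralogue groups 1 to 4, 3 of 9 in groups 5 to 8 and 2 of 14 in groups 9 to 13. By cluster they were 4 of 9 Hoxa genes, 2 of 9 Hoxb genes, 1 of 7 Hoxc genes and 1 of 8 Hoxd genes. None of the 10 genes of groups 10 to 13 was among them.

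**Figure D2:**
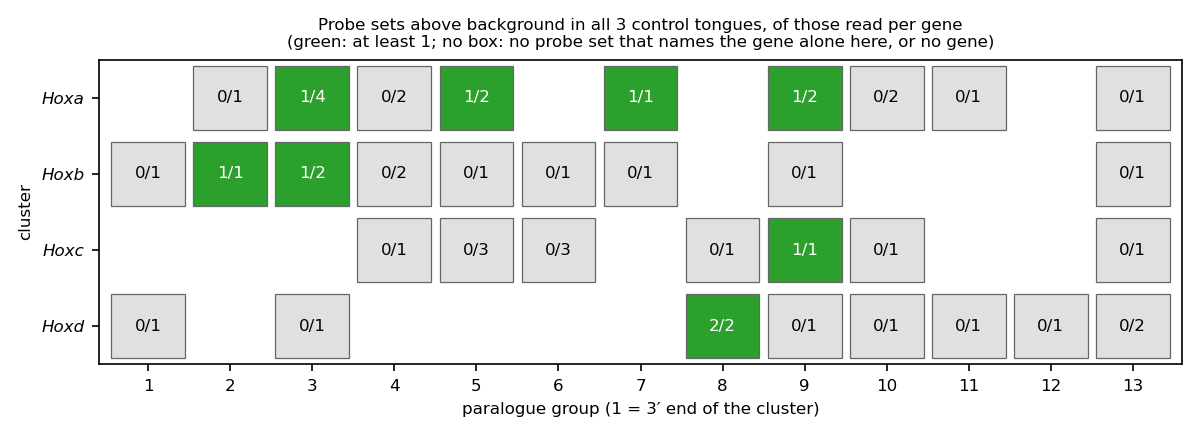
Grid of the Hox clusters (rows) and paralogue groups (columns) with, for each gene, the number of probe sets above background in all 3 control tongues out of those that read it. Green boxes hold at least 1; Hoxd8 is the gene with 2 of 2, and groups 10 to 13 have no green box.

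Of the 11 genes read by several probe sets, 6 had all of them at background and only Hoxd8 had all of them above it. Hoxa3, Hoxa5, Hoxa9 and Hoxb3 had 1 above and the rest at background, so their detection rests on that probe set alone. The Hoxa5 probe set above background, 1443803_x_at, carries the suffix that marks probes shared with other transcripts, and 1448926_at of the same gene lay between 3.39 and 3.66 in the 6 arrays. Hoxa7, Hoxb2 and Hoxc9 have no further probe set among the members.

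The limit decided the margin of the list. Just inside it was Hoxa3 (1452421_at), with control values of 5.49, 5.79 and 5.70, and just outside was Hoxb4 (1460379_at), a regulator of blood stem cells, with 5.51, 5.53 and 5.48. At the 99th percentile of the receptor probe sets 6 probe sets of 5 genes were left: Hoxa5, Hoxa7, Hoxb2, Hoxc9 and Hoxd8. At the 90th percentile 14 probe sets passed, adding Hoxb4, Hoxc4, Hoxc6, Hoxd9 and Hoxd13. Leaving out any 1 control array gave 9 each time.

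No Hox probe set passed the test between the genotypes, a count near the low shares called over all probe sets and all genes. Of the 48, 0 reached an adjusted p under 0.05 (limma, adjusted over all 45037 probe sets), where 0.748% of all probe sets did (337: 190 or 0.422% higher and 147 or 0.326% lower in mutants), and the smallest adjusted p of a Hox probe set was 0.200. Tested by 1 probe set per gene with the lowest 25% of genes left out, 14 Hox genes remained and 0 passed, against 2.14% of 13645 genes. An unadjusted p under 0.05 was reached by 2 of 48 Hox probe sets, against 13.3% of all. The groups did not overlap for 6 of 48 (5 higher, 1 lower), against 20% of all probe sets (10.5% higher, 9.47% lower) and 14% of those not above background in controls. The 6 were probe sets of Hoxa5 (1448926_at), Hoxa11, Hoxb5, Hoxc5 (1456301_at) and Hoxc6 (1427361_at), higher, and Hoxd1, lower. All 6 were at background in controls, and 0 of the 9 above background were among them, against 25.2% of all probe sets above background.

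The differences were also small. The log2 differences of the 48 lay between -0.35 and 0.34, and their median was 0.032, against 0.017 over all probe sets. None reached 0.5 in size, as 4.91% of all probe sets and 7.51% of those above background in controls did. For the 9 above background the median was 0.011, and the 95% intervals of limma, each for its probe set alone, reached no further than a 1.37-fold change. The widest interval bound of all 48 was 1.53-fold, for Hoxa11. RMA compresses differences of dim probe sets, so at background these bounds limit the measured values, not the RNA.

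**Figure D3:**
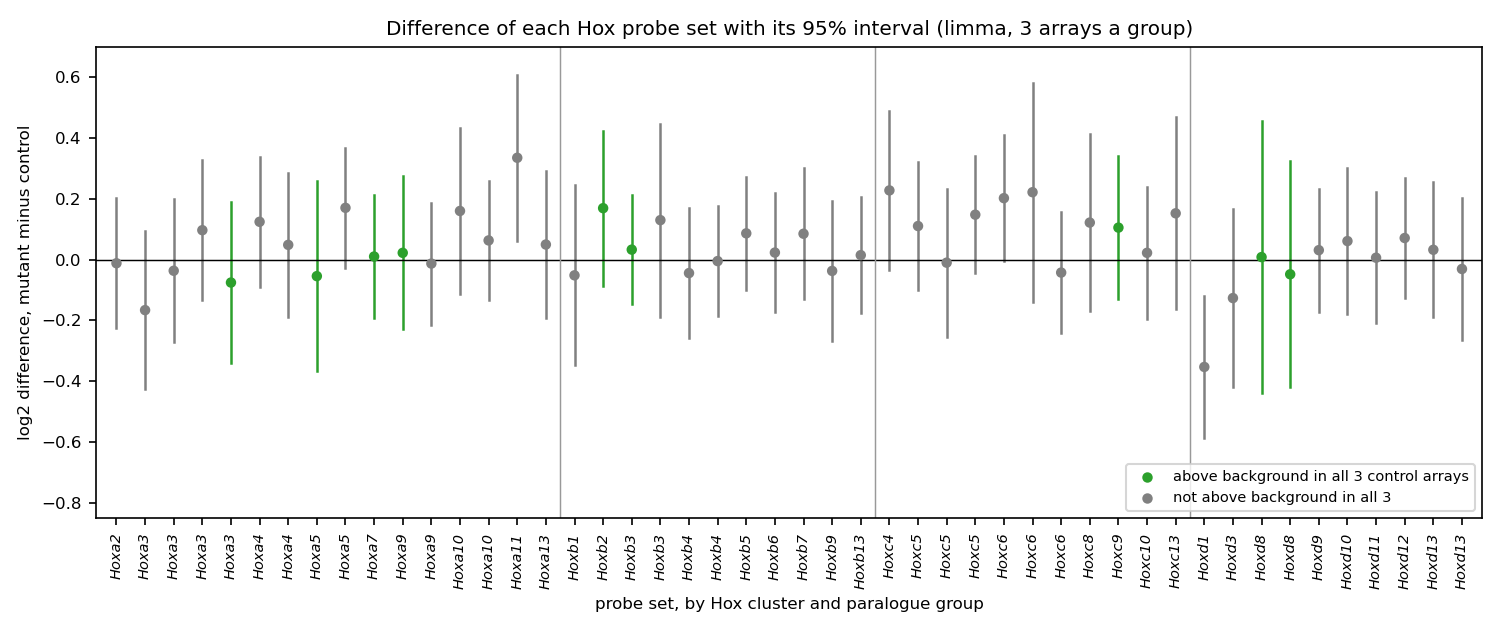
Log2 difference, mutant minus control, of each Hox probe set with its 95% interval (limma, 3 arrays per group); green marks the 9 probe sets above background in control tongues. All green intervals cross 0 and stay within 0.46 of it, and the intervals of Hoxa11 and Hoxd1, both at background, are those that exclude 0.

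Among the anterior groups, Hoxb2 and Hoxb3 pattern the hindbrain and the crest of the arches behind the first. Hoxb2 (1449397_at) had control values of 6.88, 7.03 and 6.91 and mutant values of 7.30, 7.05 and 6.97. The groups overlapped, mutant array 1 stood highest, and the log2 difference was 0.17 (standard error 0.11, limma adjusted p = 0.562), or 0.073 without that array. Hoxb3 (1427605_at) hardly varied, with 5.71, 5.77 and 5.76 in controls and 5.76, 5.80 and 5.77 in mutants, a difference of 0.033. Its other probe set (1456229_at) was at background in all arrays.

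Hoxa3 is required for the thymus and other pharyngeal organs. Its probe set 1452421_at read 5.49, 5.79 and 5.70 in controls and 5.74, 5.47 and 5.55 in mutants, of which 1 mutant array exceeded its background limit. The difference was -0.075 (adjusted p = 0.824), and the groups overlapped. Hoxa2, the selector gene of the second arch, was at background, with control values averaging 4.56 ± 0.073 (SD, n = 3) and mutant values 4.55 ± 0.10 (SD, n = 3). Hoxb1, which patterns the hindbrain, was at background too, at 3.87 ± 0.23 and 3.82 ± 0.089.

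In the middle groups, Hoxa5, which patterns the cervical skeleton and the airway, read 7.24, 7.25 and 7.01 in controls and 7.37, 6.91 and 7.06 in mutants on its probe set above background, a difference of -0.054 (standard error 0.13, adjusted p = 0.899). Hoxa7, which patterns thoracic vertebrae, read 6.46, 6.63 and 6.53 in controls and 6.52, 6.53 and 6.61 in mutants, a difference of 0.011 (standard error 0.087). Both pairs of groups overlapped, and the differences were smaller than the spread within a genotype.

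In the posterior groups, Hoxa9, a gene of trunk patterning and of blood progenitors, read 6.00, 5.87 and 6.11 in controls and 6.02, 5.87 and 6.16 in mutants (difference 0.023). The other Hoxa9 probe set, 1455626_at, was at background, at 3.59 ± 0.011 in controls and 3.57 ± 0.10 in mutants (SD, n = 3 each). Hoxc9, known from spinal motor neurons and the thoracic skeleton, read 6.89, 6.91 and 6.85 in controls and 7.17, 6.92 and 6.88 in mutants, a difference of 0.11 (adjusted p = 0.702). Mutant array 1 stood highest, and the difference was 0.016 without it.

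Hoxd8, known from the trunk and from endothelial cells, was the member with the firmest detection and the widest spread among the 9. Its probe set 1431099_at read 7.96, 7.49 and 7.56 in controls and 7.94, 7.29 and 7.80 in mutants. Its probe set 1433638_s_at, whose suffix also marks probes shared among transcripts, read 7.27, 6.93 and 6.87 in controls and 7.16, 6.67 and 7.09 in mutants. The differences between genotypes were 0.0087 (standard error 0.19, adjusted p = 0.990) and -0.048 (standard error 0.16, adjusted p = 0.928). Both probe sets were high in control array 1 and mutant arrays 1 and 3 and low in the other arrays. The median of 8 endothelial markers, set against the control mean, was -0.88 in mutant array 1 and between -0.081 and 0.026 in the other 5 arrays. The part of endothelial cells in the Hoxd8 values was not tested.

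Across the 6 arrays both Hoxd8 probe sets varied together. Pearson's r was 0.971 (exact permutation p = 0.00417) and Spearman's rho 0.943 (exact permutation p = 0.0167), and r was 0.944 without mutant array 2 and control array 1. This was the only relation of its kind computed, since no other gene had several probe sets above background, and both probe sets read the same RNA of each array. The 3 arrays with the higher Hoxd8 values were those with Xist, the RNA that coats the silenced X chromosome, between 11.7 and 13.2, and the others, with Xist between 6.14 and 6.43, showed Y-linked RNA instead.

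Female arrays averaged 7.90 ± 0.088 and male arrays 7.45 ± 0.14 (SD, n = 3 each) on 1431099_at, and 7.17 ± 0.090 and 6.82 ± 0.13 on 1433638_s_at. The exact 2-sided permutation test gave p = 0.1 for each, the smallest that 3 arrays against 3 allow. The other 7 probe sets above background did not separate by sex, with exact permutation p between 0.3 and 0.9, and the Hoxd8 pattern was seen before it was tested. In a limma fit of genotype and sex the female minus male difference was 0.51 and 0.41 (adjusted p = 0.999 for both), and 4.03% of all probe sets were higher in all female than in all male arrays. Among these were Hoxb3 on 1456229_at (0.29 in that fit) and Hoxc4 (0.22), both not above background in controls. Rarb, a regulator of Hox clusters, was another (0.52, adjusted p = 0.999). The labels do not give the sex, which was read from these arrays, and with it in the fit the mutant minus control differences of Hoxd8 were -0.16 and -0.18 (adjusted p = 0.630 and 0.530).

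**Figure D4:**
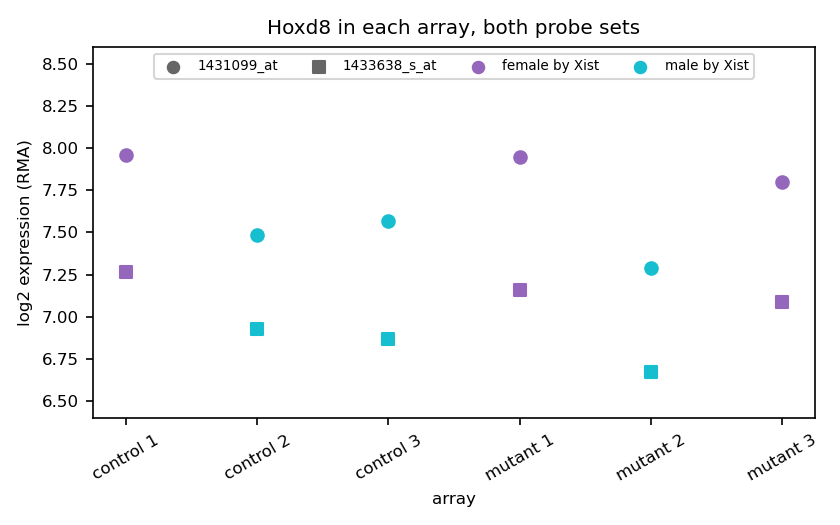
Log2 expression of Hoxd8 in each array for its probe sets 1431099_at (circles) and 1433638_s_at (squares), coloured by the sex that Xist gives. The female arrays lie between 7.80 and 7.96 on the first and between 7.09 and 7.27 on the second, above the male arrays in both genotypes.

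Hoxd1 and Hoxa11 had the largest differences, both among probe sets at background. Hoxd1, a gene of the anterior group known from the hindbrain and from pain-sensing neurons, read 3.86, 3.64 and 3.59 in controls and 3.42, 3.30 and 3.31 in mutants, all far below the background limit. The difference was -0.35 (standard error 0.10, adjusted p = 0.200; -0.39 and adjusted p = 0.169 without mutant array 1), and the groups did not overlap. Hoxa11, a gene of limb and uterus, read 4.30, 4.58 and 4.15 in controls and 4.67, 4.68 and 4.68 in mutants, a difference of 0.34 (adjusted p = 0.281, standard error 0.12). Further probe sets with extreme differences were those of Hoxc4 (0.23), Hoxc6 (0.22 and 0.20), Hoxa3 (-0.17 on 1427433_s_at) and Hoxd3 (-0.13), with adjusted p between 0.384 and 0.716; the Hoxc6 difference of 0.22 was 0.060 without mutant array 1. Hoxa5 (1448926_at), at 3.40, 3.55 and 3.39 in controls and 3.60, 3.60 and 3.66 in mutants, gave 0.17 (adjusted p = 0.441). Of these, 1 Hoxc6 probe set (1427361_at) was over its limit in 2 of 3 mutant arrays and 0 of 3 control arrays, with 5.64, 5.59 and 5.47 against 5.44, 5.35 and 5.30.

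The start regions of Hoxd8 and Hoxd1 are printed because they are genes of the same cluster on the same strand, the first with both probe sets above background and the second at background in all 6 arrays. They are the 250 bases before the start in RefSeq (GRCm38.p6, plus strand), chr2:74704365-74704614 and chr2:74762730-74762979, with CG dinucleotides in capitals.
Hoxd8: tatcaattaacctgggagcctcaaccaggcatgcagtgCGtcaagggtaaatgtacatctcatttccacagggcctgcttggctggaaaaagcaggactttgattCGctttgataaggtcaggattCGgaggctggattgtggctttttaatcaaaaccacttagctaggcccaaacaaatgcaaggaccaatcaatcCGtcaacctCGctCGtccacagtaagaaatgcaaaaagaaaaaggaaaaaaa
Hoxd1: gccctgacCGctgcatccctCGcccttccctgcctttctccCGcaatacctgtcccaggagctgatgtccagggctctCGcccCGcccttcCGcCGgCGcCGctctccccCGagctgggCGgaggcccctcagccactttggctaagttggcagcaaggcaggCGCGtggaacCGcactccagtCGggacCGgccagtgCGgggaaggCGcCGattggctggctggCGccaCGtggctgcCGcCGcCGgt
Hoxd8 has 6 CG dinucleotides here and Hoxd1 has 24, and their G and C content is 44.4% and 71.6%.

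RefSeq start regions were at hand for 19 of the 33 genes, 21 regions in all, and their median CG count was 13 against 6 over 32851 regions of all genes. Genes above background in controls had between 3 and 28 (5 regions) and the others between 2 and 35 (16 regions), so the ranges overlapped. The letters TGATNNAT, a composite Hox and Pbx motif sought on both strands, occurred in 3 of 21 Hox regions, those of Hoxa2, Hoxb1 and Hoxd11, and in 7.68% of all regions. The letters CAGAC, a core of Smad binding, occurred in 6 of 21 and in 42.2% of all regions, and Hoxd8 and Hoxd1 held neither motif. Neither motif contains the other, and a match is not a binding site.

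The DNA-binding partners of Hox proteins were well detected. Of 8 measured genes of the Meis, Pbx and Pknox families 7 were above background in controls, all but Pbx4, and 0 of their 20 probe sets passed the test. Groups did not overlap for 6 of the 20 (3 higher, 3 lower), against 20% of all probe sets and 25.2% of those above background in controls. The higher ones read Meis1 (1450992_a_at and 1443260_at) and Meis2 (1457632_s_at). The lower ones read Pbx3 (-0.23 on 1447640_s_at and -0.22 on 1421193_a_at) and Pknox1 (1421233_at). Meis1 read 9.001, 8.71 and 8.55 in controls and 9.32, 9.33 and 9.06 in mutants, a difference of 0.49 with groups that did not overlap (adjusted p = 0.196). Meis2 read 10.92, 10.60 and 10.43 in controls and 11.25, 11.12 and 10.97 in mutants, also without overlap (0.46, adjusted p = 0.224), and Pknox1 gave -0.27 on 1421233_at (adjusted p = 0.342), -0.23 on 1450172_at and -0.045 on its brightest probe set, 1437470_at. The other probe sets of Meis1 gave 0.36 and -0.059 and those of Meis2 gave 0.26, 0.45 and 0.31, and the median of the 8 genes, each by 1 probe set, was -0.047.

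Among 18 measured regulators of Hox clusters, 1 of 36 probe sets passed, where 0.748% of all did. It read Egr2 (Krox20), the zinc finger gene that activates Hoxa2 and Hoxb2 in the hindbrain and also acts in Schwann cells. Egr2 (1427683_at) read 5.44, 5.53 and 5.57 in controls, near background, and 6.23, 6.86 and 6.95 in mutants, all above it, a difference of 1.16 (standard error 0.18, adjusted p = 0.0408). The call was lost without mutant array 2 (adjusted p = 0.130) or 3 (0.0583), without control array 1 (0.139), 2 (0.219) or 3 (0.200), and with sex in the fit (0.0745), while the difference stayed between 1.03 and 1.23 in these fits. Its other probe set gave 1.05 (adjusted p = 0.0521). Hoxb2, whose hindbrain expression Egr2 activates, gave the 0.17 reported above. Of the other regulators, the Polycomb gene Suz12 gave -0.53 on 1420022_s_at (adjusted p = 0.141) and -0.39 on 1452364_at (0.192), and Kat6a, an acetyltransferase gene, -0.62 on 1437487_at (0.209). Suz12 on 1420022_s_at was near background, over its limit in 3 of 3 control arrays and 1 of 3 mutant arrays. The other Suz12 probe sets gave -0.35 to -0.10, with -0.20 (0.372) on the brightest, 1420021_s_at. Those of Kat6a gave -0.15 and, on the brightest (1436315_at), -0.082, or 0.18 without mutant array 1. The Cdx genes, which activate trunk Hox genes, were at background in controls.

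Genes that Hoxa2 is known to control in the second arch gave 0 calls in 13 probe sets of 8 genes. Meox1, which Hoxa2 activates, differed by -0.78 (adjusted p = 0.0591, or 0.0387 when each gene was tested by 1 probe set), Barx1 by 0.71 (0.114) and Six2, which Hoxa2 represses, by -0.33 (0.256). Meox1 is also in the list of somite and muscle markers below, and Barx1 in that of mesenchyme markers. Hoxa2 itself was at background in both genotypes, and its part in these differences was not tested. Other transcripts in or beside the clusters gave 0 calls in 29 probe sets of 15 genes, 9 of them above background. The antisense transcript Hoxb5os was above background (0.17, adjusted p = 0.630), while Hoxa11os and Hoxd3os1 were not. Lnpk, a neighbour of the Hoxd cluster, gave -0.67 on 1429120_at (adjusted p = 0.166) and -0.29 and -0.30 on its other probe sets, and Snx10, a neighbour of the Hoxa cluster, gave 0.24 (0.425) and -0.026.

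Markers of the tissues a tongue sample can hold were present, and several lists had higher or lower medians in mutants. Markers of somite and muscle progenitors (12 of 12), cranial mesenchyme (9 of 9), epithelium (9 of 9) and nerve (9 of 9) were above background in controls, as were 7 of 8 endothelial, 8 of 8 blood, 3 of 8 cartilage, 5 of 8 gland and airway and 3 of 6 thyroid and pouch markers, with Tg, Pax8 and Foxn1 at background. Differences were above 0 in 24491 of all 45037 probe sets and in 11719 of the 24252 above background in controls. By the brightest probe set of each gene, epithelium markers had differences above 0 for 9 of 9 genes, with 0 of 18 probe sets called and a smallest adjusted p of 0.0887 (median 0.60, 0.44 without mutant array 1). Their summed linear level was 15590 to 17010 in controls and 19830 to 31540 in mutants. Somite and muscle markers had differences below 0 for 10 of 12, with 0 of 19 probe sets called (median -0.34, -0.13 without mutant array 1). Their sum was 45650 to 49890 in controls and 29900 to 44610 in mutants. The brightest genes weigh most in such a sum, here Actc1, Myh3 and Myog, with control means of 14.36, 13.79 and 12.67. Endothelial markers had differences below 0 for 6 of 8, with 0 of 12 called (median -0.35, -0.041 without mutant array 1). Their sum was 2035 to 2211 in controls and 1346 to 2045 in mutants. Nerve markers had differences above 0 for 8 of 9, with 3 of 18 called (median 0.37, 0.59 without it; 3973 to 4108 and 4032 to 5076). The medians of the other lists were -0.098 (mesenchyme), 0.0029 (blood), -0.031 (cartilage), -0.010 (thyroid and pouch) and 0.20 (gland and airway), and without mutant array 1 they were -0.096, -0.10, 0.046, -0.063 and 0.13. Mesenchyme markers had differences below 0 for 6 genes and above 0 for 3. Despite the small median, their sum was 27160 to 30040 in controls and 15420 to 26390 in mutants, without overlap. For blood, cartilage, thyroid and pouch, and gland and airway markers the sums of the groups overlapped. The part of all these tissues in the Hox values was not tested.

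Calls in these marker lists were made for 3 of 18 nerve, 1 of 22 mesenchyme, 1 of 17 blood and 1 of 15 cartilage probe sets, where 0.748% of all were called. Each call was that of 1 probe set. Prrx1, a mesenchyme marker, gave 0.61 on 1439774_at (adjusted p = 0.0361), while its brightest probe set (1425528_at) gave 0.28 (0.441) and the other 4 between -0.16 and 0.19. Stmn2 gave 1.07 (0.0408) and 0.76 on its other probe set, and Nefl 1.47 (0.0468) and 1.27. C1qb gave 1.13 (0.0499), with 0.87 and 0.77 on the others, and Col9a1 gave 0.87 (0.0426) and 0.27. Dcx gave -0.92 (0.0288) on 1418140_at and between -1.42 and -1.11 on the others, which were not called. All 6 lost the call when mutant array 2 was left out, likewise control array 2 or 3, and with sex in the fit, with adjusted p between 0.0750 and 0.269. The differences in those fits stayed at 0.562 to 0.601 for Prrx1, 1.02 to 1.05 for Stmn2, 1.26 to 1.41 for Nefl, 1.03 to 1.09 for C1qb, 0.785 to 0.845 for Col9a1 and -0.923 to -0.850 for Dcx. Without mutant array 3 Prrx1, Stmn2, Nefl and Col9a1 lost it too, without control array 1 Prrx1, Dcx, Stmn2 and C1qb did, and without mutant array 1 Nefl and C1qb did, with adjusted p between 0.0570 and 0.0796. On the first principal component, with 47% of the variance over all probe sets, mutant array 1 lay apart at -56.9, against -11.8 and -3.45 for the other mutants and 14.7 to 28.9 for the controls. Without it 0 of 48 Hox probe sets passed, as with all arrays, and the median of the 9 above background was 0.016.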

How the data were processed

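Total RNA of 6 tongues was hybridised to Affymetrix expression arrays, per the labels' protocols. The authors deposited log2 values made with RMA (background correction, quantile normalization and probe summary), per the submitters' processing notes; the version and probe definitions are not given in the sources used here. The values lay between 2.53 and 14.93, and array medians between 5.92 and 5.98. Arrays have no read depth; their number limits the precision.

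Of 45101 rows, 64 control probe sets were left out. Of the rest, 34945 have 1 gene symbol in the platform annotation, 932 several and 9160 none listed; Entrez identifiers matched to RefSeq (GRCm38.p6) changed 0 symbols, and 204 probe sets had no match. Every probe set was tested in R 4.3.3 (limma 3.58.1, functions lmFit and eBayes, 2-sided, Benjamini-Hochberg over all 45037, threshold 0.05), on 3 mutant and 3 control arrays without covariates, and the script was tested on simulated data. Correlations and permutation tests used scipy 1.17.1 and figures matplotlib 3.10.9.

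Named were Hox probe sets above background in either group or called, the 5 highest and 5 lowest differences, and for other lists the called members and up to 3 more with the smallest p; Hoxa2, Hoxb1, Hoxb4, Hoxb5, Hoxc5 and the antisense genes were named after their values were seen. The members, lists and alternatives were chosen with earlier results of these data known. The 13 lists cover Hox cofactors, Hox regulators, Hoxa2 targets, cluster neighbours and tissue markers. Alternatives covered the rows tested, scaling, variance model, array weights, replicate block, sex, single arrays and the background limit.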

Additional observations from a re-analysis of the deposited data

Results flagged for a closer look

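A probe set that names both Hoxd4 and Hoxd3 (1421537_at), and so belongs to no single gene, was above background in all 6 arrays and higher in every mutant than in every control. It read 6.85, 6.63 and 6.66 in mutants and 6.36, 6.56 and 6.48 in controls, a difference of 0.25 (standard error 0.099, limma adjusted p = 0.339; 0.18 without mutant array 1). Groups failed to overlap for 20% of all probe sets. Another probe set of the same pair of genes (1450209_at) was at background and differed by 0.094, and that of Hoxd3 alone by -0.13.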

How the results depend on the processing

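No Hox probe set was called under any of the 15 alternative fits, with a smallest adjusted p of 0.131 (array quality weights), and 2 Hox probe sets at most had an unadjusted p under 0.05, except 4 with array quality weights. These fits called between 0 and 808 rows, so the absence of Hox calls lay near their shares and says little about stability. Without control array 2 nothing was called at all, so no Hox probe set could be. The count over all probe sets, 337, was 808 with array quality weights and 136 with sex as a covariate, and between 0 and 553 when 1 array was left out: 511, 108 and 553 without mutant array 1, 2 and 3, and 153, 0 and 14 without control array 1, 2 and 3. Without control array 2, where limma called 0, 3822 probe sets had an unadjusted p under 0.05. The share of these calls higher in mutants was 56.4%, and 46.3% with arrays centred on their median, 33.3% without mutant array 3 and 64.4% without mutant array 1. The count of Hox probe sets above background, 9, was 14 at the 90th percentile and 24 above the 25th percentile of all probe sets. Calls in the 13 lists, 7 in all, were 11 without mutant array 1. Of the 6 marker calls, those of Prrx1, Stmn2 and Col9a1 were lost with the replicate block, those of Stmn2 and Col9a1 with the mean of probe sets, those of Nefl, C1qb and Col9a1 with centred arrays and that of C1qb with a further quantile normalization. The median of the 9 stayed between -0.030 and 0.095 over the fits that hold all 9, within 1 SD of arrays. Fits with 1 row per gene hold fewer of them, and their medians were 0.017 (1 probe set per gene) and 0.070 (mean of probe sets). Whether title numbers pair the arrays was not settled. Deviations of same-numbered arrays correlated at 0.221, 0.013 and 0.136, and those of differently numbered arrays between -0.193 and 0.121. With the replicate block 472 probe sets and 0 Hox probe sets were called. Of 231 values of the 17 named Hox probe sets under alternatives 207 kept direction and call, and 24, none called, changed sign. With the mean of probe sets Hoxa5 gave 0.058 and Hoxd8 -0.020. With arrays centred on their median Hoxa7 gave -0.026, Hoxa9 -0.014, Hoxb3 -0.0031 and Hoxd8 -0.028. With a further quantile normalization Hoxa7 gave -0.0034, Hoxa9 -0.0094 and Hoxb3 -0.0089. With array quality weights Hoxa7 gave -0.0019 and Hoxd8 -0.015, and with sex Hoxa9 -0.015 and Hoxd8 -0.16. Leaving out 1 array gave -0.181 to 0.0486 for Hoxa5, -0.0316 to 0.0577 for Hoxa7, -0.0477 to 0.0948 for Hoxa9, -0.125 to 0.202 for Hoxd8 (1431099_at) and -0.141 to 0.103 for 1433638_s_at. The cause of these sign changes was not tested. Signal over background limits the rest: 39 of 48 Hox probe sets were not above it.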
